A study of Mus musculus with 5 samples.

Results

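Of the 16133 genes that could be compared between CRC tumours of mice kept at 30 °C and at 4 °C, 44 genes of mitosis and the spindle were described. The 44 genes, all of them known parts of mitosis and the spindle, were chosen by their known role together with their measured counts in these same tumours, with results of this comparison known, so their difference between the temperatures is a description of the tumours and not a test. All 44 were found once among the 54113 named entries of the table, and all 44 passed the filter on low counts. CRC stands for colorectal cancer, and the study's methods name MC-38, a mouse colon adenocarcinoma cell line, as its mouse CRC cells. The first group held 3 tumours of C57BL/6 mice exposed to 30 °C for 2 weeks, a temperature near thermoneutrality, at which a mouse spends little energy on keeping warm. The second group held 2 tumours of C57BL/6 mice exposed to 4 °C for the same time. All 5 samples were labelled as tumour tissue, which can hold host cells beside implanted cells, and the share of each was not measured. No genetic change or drug is given in the labels for either group. The labels give neither the age and sex of these mice nor the site of these tumours.

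A dividing cell copies its DNA and then passes through mitosis, in which chromosomes condense, attach to a spindle of microtubules and are pulled apart. Cyclin-dependent kinase 1 (Cdk1) with its cyclins starts the process, a checkpoint holds it until every chromosome is attached, and the anaphase-promoting complex ends it by marking cyclins and other proteins for destruction. Most transcripts of this machinery are made in G2 and M phase and are scarce in resting cells, so that in a tissue they mark cells in cycle. Their transcription is kept low in resting cells by the DREAM complex and raised in dividing cells by B-Myb and Foxm1, which work through a short promoter element, the cell cycle genes homology region (CHR), often beside CCAAT boxes.

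The promoters of the 44 genes were read for elements in common. A window from 250 bases before to 50 bases after the start of transcription was found in RefSeq (GRCm38.p6) for 37 of the 44 genes. No window was matched for Aurkb, Ccna2, Foxm1, Incenp, Kif20a, Pbk and Tpx2. The windows of 5 genes of the cell cycle engine, its kinases and the chromosome surface are given 5′ to 3′ on the strand of the gene, where capitals mark the CHR (TTTGAA or TTTAAA), the CCAAT box (CCAAT) and the E2F site (TTTCGCGC, TTTCCCGC, TTTGGCGC or TTTGCCGC) on either strand, so that TTCAAA and ATTGG are the CHR and the CCAAT box read on the other strand. Ccnb1 encodes cyclin B1 (chr13:100786437-100786736, minus strand), Cdk1 its kinase (chr10:69352863-69353162, minus strand), Plk1 the Polo-like kinase of mitosis (chr7:122159185-122159484, plus strand), Top2a the topoisomerase that untangles sister DNA (chr11:99024140-99024439, minus strand) and Mki67 the proliferation antigen Ki-67 (chr7:135716330-135716629, minus strand). Each window holds the promoter and the first bases of the first exon.
Ccnb1: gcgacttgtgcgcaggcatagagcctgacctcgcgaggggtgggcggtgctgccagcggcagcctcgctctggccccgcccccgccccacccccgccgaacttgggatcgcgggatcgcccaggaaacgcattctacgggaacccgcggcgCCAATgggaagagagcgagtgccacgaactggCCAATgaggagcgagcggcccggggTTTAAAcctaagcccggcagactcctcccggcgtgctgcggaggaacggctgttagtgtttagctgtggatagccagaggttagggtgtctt
Cdk1: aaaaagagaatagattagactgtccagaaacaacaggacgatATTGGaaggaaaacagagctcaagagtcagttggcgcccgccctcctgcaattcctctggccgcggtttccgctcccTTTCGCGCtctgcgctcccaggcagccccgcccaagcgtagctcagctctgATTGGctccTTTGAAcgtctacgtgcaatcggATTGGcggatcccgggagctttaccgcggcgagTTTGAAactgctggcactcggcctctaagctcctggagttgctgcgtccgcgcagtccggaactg
Plk1: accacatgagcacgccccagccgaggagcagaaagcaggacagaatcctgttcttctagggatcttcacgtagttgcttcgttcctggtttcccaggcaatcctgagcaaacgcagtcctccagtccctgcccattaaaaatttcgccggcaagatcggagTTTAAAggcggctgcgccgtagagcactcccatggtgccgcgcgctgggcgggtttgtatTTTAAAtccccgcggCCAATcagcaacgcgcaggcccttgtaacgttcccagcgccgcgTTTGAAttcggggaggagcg
Top2a: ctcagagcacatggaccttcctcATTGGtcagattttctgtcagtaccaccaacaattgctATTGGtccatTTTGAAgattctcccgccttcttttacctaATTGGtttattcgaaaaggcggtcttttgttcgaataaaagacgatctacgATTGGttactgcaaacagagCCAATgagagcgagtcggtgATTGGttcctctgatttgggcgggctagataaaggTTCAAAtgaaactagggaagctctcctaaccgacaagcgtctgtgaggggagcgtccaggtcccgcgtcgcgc
Mki67: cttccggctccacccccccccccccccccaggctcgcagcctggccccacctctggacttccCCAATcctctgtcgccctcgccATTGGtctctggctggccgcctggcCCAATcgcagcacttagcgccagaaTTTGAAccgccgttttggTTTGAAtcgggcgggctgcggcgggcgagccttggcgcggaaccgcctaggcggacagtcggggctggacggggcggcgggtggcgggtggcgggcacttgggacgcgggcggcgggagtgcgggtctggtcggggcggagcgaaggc

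The CHR was present in 31 of the 37 windows (83.8%), against 27.8% of the windows of 27025 genes. Within 50 bases of the start it was present in 27 of the 37 (73.0%), against 8.24% of all genes. A CCAAT box was present in 28 of the 37 windows (75.7%), against 37.9% of all genes, and both elements stood in 26 (70.3%), against 10.9%. The E2F site was present in 4 windows (10.8%), against 2.32%. In Ccnb1 a single CHR began at −42, downstream of CCAAT boxes at −99 and −67, and in Cdk1 CHRs began at −71 and −15. In Mki67 the CHRs began at −116 and −98, farther from the start. No CHR was found in the windows of Bub1, Mad2l1, Melk, Ncaph, Nek2 and Nuf2. Matches of such short words are a description of the letters in these windows, and binding of a factor was not measured. As the genes were chosen for their role in mitosis, the shares describe that choice and not the difference between the temperatures.

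**Figure D1:**
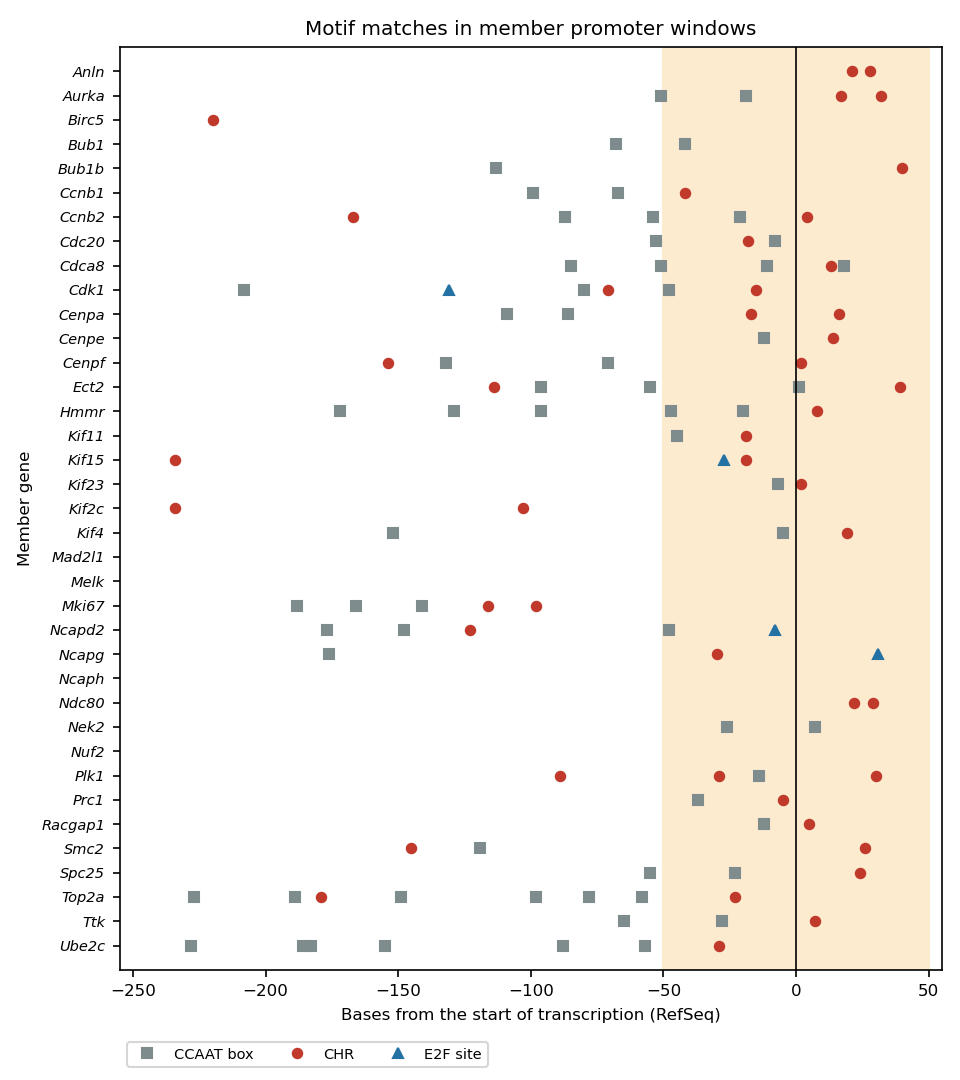
Positions of motif matches in the promoter windows of 37 mitosis and spindle genes, with bases from the RefSeq start of transcription on the x axis and 1 gene per row. Red circles are CHRs, grey squares CCAAT boxes and blue triangles E2F sites, and the shaded band covers 50 bases on each side of the start, where 27 of the 37 genes have a CHR; CCAAT boxes lie mostly upstream of it, with a median position of −68.

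The libraries held 16191708 to 20320525 counts on named genes, and the counts of the 44 genes ranged from 224 to 13786 in a library, so none was near 0. Counting error was not set beside the spread between tumours. Genes of pancreatic acinar cells took 31.0% of the counts in 30 °C replicate 2 and 0.301% in 4 °C replicate 2, against 0.00237% to 0.00916% in the other 3 libraries. Levels are therefore given as TMM-scaled counts per 1000000 (CPM), in which a scaling factor per library makes up for such a dominant group of transcripts. The epithelial and colon carcinoma markers summed to 57.4, 172 and 19.2 scaled CPM at 30 °C and to 17.95 and 90.1 at 4 °C. The highest sums, 172 and 90.1, were those of 30 °C replicate 2 and 4 °C replicate 2, which also held the most acinar transcripts. Whether these sums come from carcinoma cells was not measured. Of the 10 epithelial and colon carcinoma markers, Vil1 and Cdx2 were below 0.5 scaled CPM in every library, and Krt19, Cldn4, Vil1 and Cdx2 were each at 0 in at least 1 library. B cell markers summed to 4180 to 11040 scaled CPM and erythroblast markers to 3637 to 7126. The 7 genes listed for the spleen summed to 343 to 512, most of it from Spic and Fcna. Of the others, Tlx1 had 14.2 to 28.0 scaled CPM, Nkx2-3 14.4 to 25.3, Nkx2-5 3.94 to 8.81 and Madcam1 9.28 to 22.1. Barx1 was at or near 0 in every library but 4 °C replicate 2 (1.44). The tissue labelled as tumour thus held little of the epithelial transcripts and much of blood cell transcripts, and the cell type in which the mitosis transcripts arose was not measured.

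Summed over the 44 genes, the level was 4730, 5810 and 4250 scaled CPM in the tumours at 30 °C and 2865 and 3215 at 4 °C. Both tumours at 4 °C were below all 3 at 30 °C. The means were 4930 ± 799 (SD, n = 3) and 3040 ± 247 (SD, n = 2), a ratio of 0.617. All 44 genes had a lower fitted level at 4 °C, and 49.3% of all genes tested did. The median log2 fold change of the 44 genes was −0.64, with a range from −1.10 for Mki67 to −0.34 for Mad2l1, and the median over all genes was 0.01. The log2 fold change was below −1 in 3 genes, between −1 and −0.5 in 30 and above −0.5 in 11, with standard errors of 0.16 to 0.36. In bulk tissue, fewer cells in cycle and less mitotic RNA per cell cannot be told apart.

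For 35 of the 44 genes, both tumours at 4 °C were below all 3 at 30 °C, which was the case for 11.0% of all genes. In the other 9, Cdk1, Aurka, Pbk, Cdc20, Ube2c, Birc5, Cdca8, Cenpa and Spc25, 4 °C replicate 2 stood above 30 °C replicate 3. The quasi-likelihood test of edgeR called none of the 44 genes at an adjusted p under 0.05, nor any other gene (0% of 16133). At an unadjusted p under 0.05, 29 of the 44 genes were lower, against 4.17% of all genes. That number was 25, 19 and 34 without 30 °C replicates 1, 2 and 3 in turn. It was 22 with the replicate block, 32 without the filter and 3 with scaling by library totals alone. The shares of all genes in these fits are not given, so these numbers cannot be set beside the 4.17%. No number is given for fits that leave 1 tumour at 4 °C, such as that without both libraries with acinar transcripts. The Wald test of DESeq2 called 4, all lower at 4 °C, against 0.787% of the 11697 genes for which it gave an adjusted p. These were Prc1, Ncapd2, Top2a and Mki67, of which Ncapd2 is named only because of this call. As the genes were chosen with this comparison known, these counts are given as a description.

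The tumour with the highest level was 30 °C replicate 2 for 39 of the genes and 30 °C replicate 1 for 5. The tumour with the lowest level was 4 °C replicate 1 for 28 and 4 °C replicate 2 for 16. The order at 30 °C depended on the scaling of the acinar-rich library. In plain CPM the sums were 5083, 4278 and 4790 at 30 °C and 3095 and 3314 at 4 °C, and 30 °C replicate 2 was highest for 3 genes, with 30 of the 44 genes not overlapping (5.41% of all genes on that scale). In CPM of the counts outside the acinar list, the sum of 30 °C replicate 2 was 6198 and it was highest for 38 genes, with 37 not overlapping (13.2% of all genes). Under each of these scales both tumours at 4 °C had the lowest sums.

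**Figure D2:**
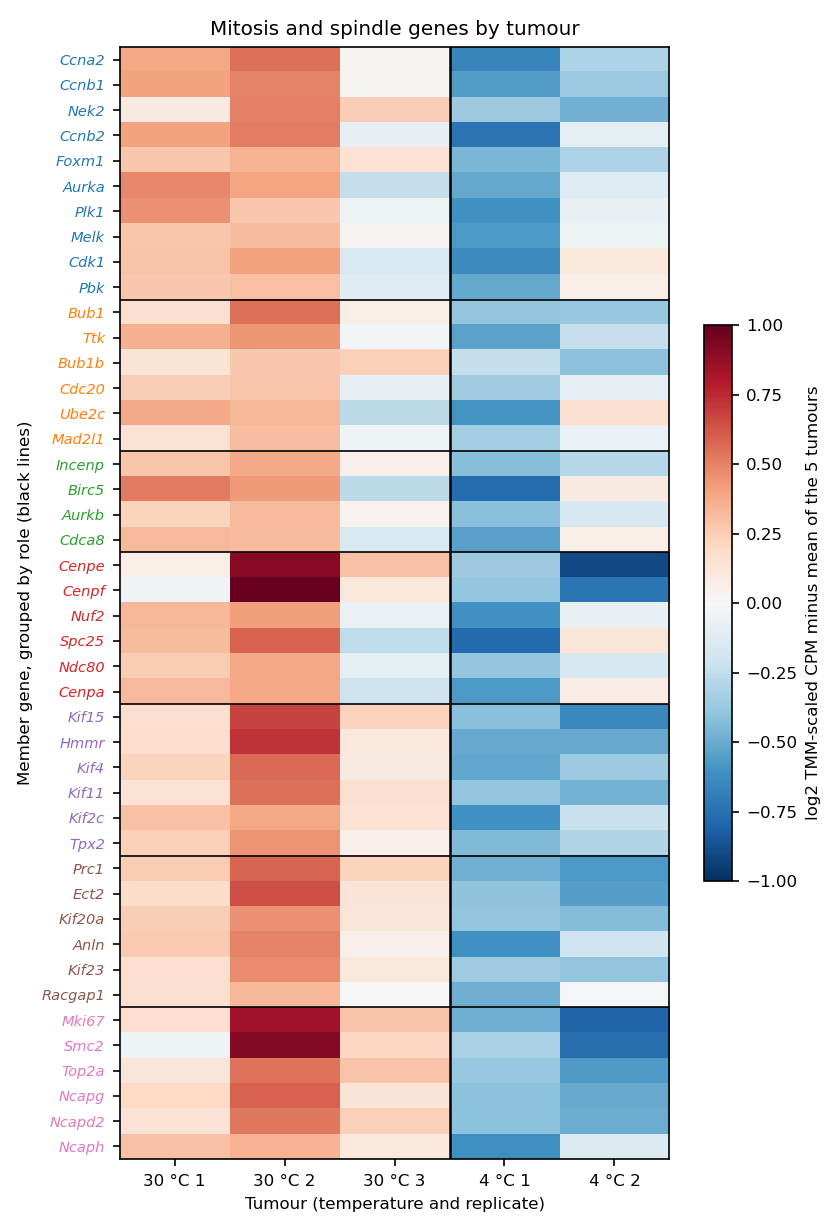
Level of each of the 44 genes in the 5 tumours, as log2 TMM-scaled CPM minus the mean of the gene over the 5 tumours (colour scale from −1 to 1, red high and blue low). Columns are tumours and rows are genes, divided by black lines into 7 role groups; the column of 30 °C replicate 2 is the reddest in 39 rows, and the columns at 4 °C are blue in most rows, with paler cells or light red in 4 °C replicate 2 for the 9 genes whose groups overlap.

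Kinases and cyclins that start mitosis were lower at 4 °C in 10 of 10. Per kilobase of exon, the most abundant of the 44 genes was Ccnb2, a second mitotic cyclin B, at 87.2 scaled CPM per kb at 30 °C and 54.4 at 4 °C. Ccnb1 had 133, 142 and 103 scaled CPM at 30 °C and 68.3 and 77.8 at 4 °C. The groups did not overlap, and the log2 fold change was −0.79 ± 0.21 (SE). Ccna2, cyclin A2 of S phase and early mitosis, had 248, 278 and 193 scaled CPM at 30 °C and 120.1 and 153 at 4 °C. Its log2 fold change of −0.81 ± 0.22 (SE) was again without overlap. Cdk1, the kinase that both cyclins bind, had 122, 133 and 90.5 scaled CPM at 30 °C and 64.7 and 108 at 4 °C. Here the groups overlapped, since 4 °C replicate 2 exceeded 30 °C replicate 3, and the log2 fold change was −0.42 ± 0.29 (SE). Without 4 °C replicate 1 it was −0.09, and without 4 °C replicate 2 it was −0.85.

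Plk1, which drives centrosome maturation and mitotic entry, had 116, 102 and 81.9 scaled CPM at 30 °C and 55.8 and 80.6 at 4 °C. The highest tumour at 4 °C was just below the lowest at 30 °C, and the log2 fold change was −0.55 ± 0.24 (SE), −0.31 without 4 °C replicate 1 and −0.86 without replicate 2. Foxm1, the transcription factor of G2 and M phase genes, had 45.6, 48.1 and 41.7 scaled CPM at 30 °C and 27.5 and 30.5 at 4 °C, with a log2 fold change of −0.64 ± 0.17 (SE). Its groups were separated by more than the spread within either. Pbk, a mitotic kinase that Cdk1 phosphorylates, stood at −0.35 ± 0.25 (SE, log2), at −0.09 without 4 °C replicate 1 and at −0.68 without replicate 2. Its values were 49.9, 50.9 and 38.0 scaled CPM at 30 °C and 29.1 and 43.4 at 4 °C, with overlap. Of the 10 genes, which also hold the kinases Aurka, Nek2 and Melk, 7 did not overlap between the groups, and the median log2 fold change was −0.60.

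The spindle checkpoint and the anaphase-promoting complex had a median log2 fold change of −0.45 over 6 genes, with 4 without overlap. It was the role median nearest to 0, but without 4 °C replicate 1 it was −0.37 against −0.27 for the chromosomal passenger complex and −0.33 for centromere and kinetochore genes. Bub1, a checkpoint kinase at the kinetochore, had 38.9, 50.8 and 36.2 scaled CPM at 30 °C and 26.5 and 26.7 at 4 °C. The pair at 4 °C agreed closely and lay below all others, with a log2 fold change of −0.66 ± 0.21 (SE). Mad2l1, whose protein Mad2 inhibits Cdc20 until chromosomes are attached, had 75.8, 85.3 and 66.8 scaled CPM at 30 °C and 54.2 and 65.7 at 4 °C. The groups did not overlap, and its log2 fold change of −0.34 ± 0.19 (SE) was −0.21 without 4 °C replicate 1. Ube2c, the ubiquitin-conjugating enzyme of the anaphase-promoting complex, had 201, 194 and 128 scaled CPM at 30 °C and 102 and 173 at 4 °C. The groups overlapped, and the log2 fold change of −0.34 ± 0.31 (SE) was −0.01 without 4 °C replicate 1 and −0.79 without 4 °C replicate 2. Of its exon bases, 22.8% are shared with Tnnc2 on the opposite strand, and the strand setting of the counting is not given in the sources used here.

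The chromosomal passenger complex corrects wrong attachments and later directs cleavage of the cell. Aurkb, its kinase, had 75.9, 81.3 and 66.5 scaled CPM at 30 °C and 48.8 and 58.1 at 4 °C. The groups did not overlap, and the log2 fold change was −0.48 ± 0.18 (SE). Incenp, the scaffold that binds and activates Aurkb, had 154, 165 and 132 scaled CPM at 30 °C and 95.0 and 105 at 4 °C, with a log2 fold change of −0.59 ± 0.18 (SE) and no overlap. Cdca8 (borealin), which with Birc5 (survivin) brings the complex to the centromere, had 113, 112 and 81.6 scaled CPM at 30 °C and 62.0 and 94.0 at 4 °C. Cdca8 overlapped between the groups, as did Birc5. Its log2 fold change of −0.39 ± 0.26 (SE) was −0.12 without 4 °C replicate 1 and −0.74 without replicate 2. In all 4 genes of the complex 4 °C replicate 2 was above 4 °C replicate 1.

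At the centromere and kinetochore the log2 fold changes ran from −1.08 for Cenpe to −0.40 for Cenpa. Cenpe, a very long kinesin that moves chromosomes to the spindle equator, had 47.8, 85.8 and 55.9 scaled CPM at 30 °C and 35.5 and 24.4 at 4 °C. Its log2 fold change was −1.08 ± 0.32 (SE), without overlap, and −0.56 without both libraries with acinar transcripts. Cenpa, the histone H3 variant that marks centromeres, had 137, 144 and 95.1 scaled CPM at 30 °C and 73.8 and 116 at 4 °C. The groups overlapped, and the log2 fold change was −0.40 ± 0.28 (SE), −0.11 without 4 °C replicate 1 and −0.78 without replicate 2. Cenpf was next to Cenpe in this order, while Ndc80, Nuf2 and Spc25, subunits of the complex that grips the microtubule, lay between −0.56 and −0.47. In total 4 of these 6 genes did not overlap between the groups.

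All 6 genes of spindle motors and spindle assembly were without overlap, with a median log2 fold change of −0.74. Kif11, the kinesin that pushes the spindle poles apart, had 131, 174 and 132 scaled CPM at 30 °C and 90.3 and 85.6 at 4 °C. The difference of −0.73 ± 0.20 (SE, log2) was larger than the spread within either group. Kif15, which works beside Kif11 on the bipolar spindle, had 53.7, 77.0 and 56.6 scaled CPM at 30 °C and 36.0 and 30.7 at 4 °C, a log2 fold change of −0.90 ± 0.22 (SE). Tpx2, the activator of Aurka on spindle microtubules, had 136, 158 and 119 scaled CPM at 30 °C and 85.3 and 93.9 at 4 °C. Its log2 fold change was −0.62 ± 0.19 (SE).

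The central spindle and cytokinesis genes were also without overlap in 6 of 6, with a median log2 fold change of −0.68. Prc1, which bundles the microtubules of the central spindle, had 88.2, 111 and 86.2 scaled CPM at 30 °C and 53.0 and 49.7 at 4 °C. Its log2 fold change was −0.89 ± 0.19 (SE). Racgap1, which with the kinesin Kif23 forms centralspindlin, had 104, 118 and 94.1 scaled CPM at 30 °C and 66.8 and 92.8 at 4 °C. The highest tumour at 4 °C came close to the lowest at 30 °C, and the log2 fold change was −0.40 ± 0.21 (SE), −0.18 without 4 °C replicate 1 and −0.67 without replicate 2. Kif20a shares 29.3% of its exon bases with Cdc23 on the opposite strand, and 10 of the 44 genes share exon bases with a gene on the opposite strand, so that part of their counts cannot be assigned without the strand.

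Chromosome condensation and surface genes had a median log2 fold change of −0.79 over 6 genes, all without overlap. This was the lowest of the 7 role medians, but without both libraries with acinar transcripts it was −0.61 against −0.74 for the kinases and cyclins, and without 4 °C replicate 2 it was −0.76 against −0.86 for centromere and kinetochore genes. Mki67, whose protein coats mitotic chromosomes, lies on chromosome 7 from 135689784 to 135716361 (GRCm38, minus strand). It had 554, 883 and 602 scaled CPM at 30 °C and 352 and 283 at 4 °C. Means were 679.6 ± 178 (SD, n = 3) and 317 ± 49.0 (SD, n = 2), and the log2 fold change of −1.10 ± 0.27 (SE) was the lowest of the 44 genes in this fit. Without both libraries with acinar transcripts it was −0.73 and Birc5 was lowest at −0.96. The lowest gene was Cenpe without 30 °C replicate 1 (−1.24) or 4 °C replicate 1 (−1.37), and Spc25 without 4 °C replicate 2 (−1.06). Mki67 alone made up 11.7%, 15.2% and 14.2% of the summed level of the 44 genes at 30 °C and 12.3% and 8.80% at 4 °C. Top2a had 368, 493 and 411 scaled CPM at 30 °C and 260.1 and 228 at 4 °C, with a log2 fold change of −0.80 ± 0.20 (SE). Ncaph, a subunit of condensin I, had 73.0, 75.8 and 64.0 scaled CPM at 30 °C and 39.0 and 54.2 at 4 °C, with a log2 fold change of −0.61 ± 0.21 (SE), which was −0.39 without 4 °C replicate 1 and −0.88 without replicate 2. For Top2a and Ncaph too, both tumours at 4 °C were below all 3 at 30 °C.

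**Figure D3:**
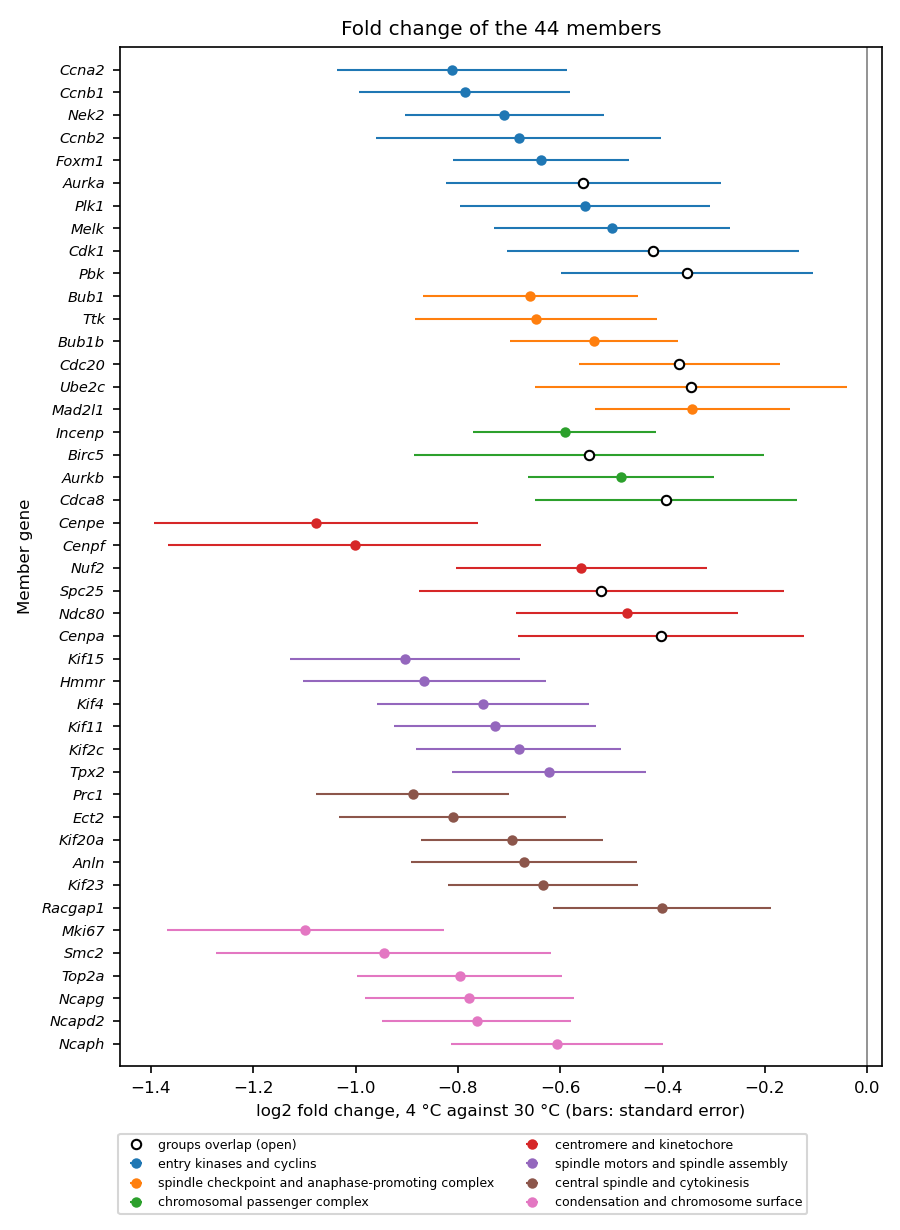
Log2 fold change of the 44 genes at 4 °C against 30 °C from the fit over all genes (x axis), with 1 gene per row, coloured by role group and ordered by value within it. Horizontal bars are standard errors and open circles mark the 9 genes whose groups overlap; all 44 points lie left of 0, between −1.10 and −0.34, and the overlapping genes lie at −0.34 to −0.55.

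The 2 tumours at 4 °C differed from each other along the length of the transcripts. For 28 of the 44 genes, among them all of the chromosomal passenger complex, 4 °C replicate 2 was above replicate 1, and for 16 it was below. Over the 44 genes the log2 ratio of replicate 2 to replicate 1 went down with exon length (Spearman's rho −0.56, Pearson's r −0.59 with log10 length). Over the 8286 tested genes at levels within the range of the 44, rho was −0.57 and r −0.41. Over all 16023 tested genes with a length, rho was −0.41 and r −0.25. Genes at large thus showed a relation in the same direction, of about the same size only in rho at these levels. For 30 °C replicate 2 against the mean of replicates 1 and 3, rho with length was 0.57 over the 44 genes and 0.03 over the 8286. These points share their libraries and are not independent. In 4 °C replicate 1, shorter and longer members, split at their median of 5056 bases, lay at a median log2 ratio to the mean at 30 °C of −0.78 and −0.74. In 4 °C replicate 2 they lay at −0.39 and −0.79, and the same split of all tested genes at these levels gave 0.12 and −0.28 for this tumour. The 9 genes whose groups overlap had a median exon length of 3188 bases, and the other 35 one of 5478. The log2 fold change between the temperatures also went down with exon length. Over the 44 genes rho was −0.47 and r −0.54, and over the 8286 genes −0.30 and −0.11. Its median was −0.57 for the shorter members and −0.76 for the longer ones. The same split of all tested genes at these levels gave 0.06 and −0.10. The part of transcript length in the differences between genes was not tested.

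**Figure D4:**
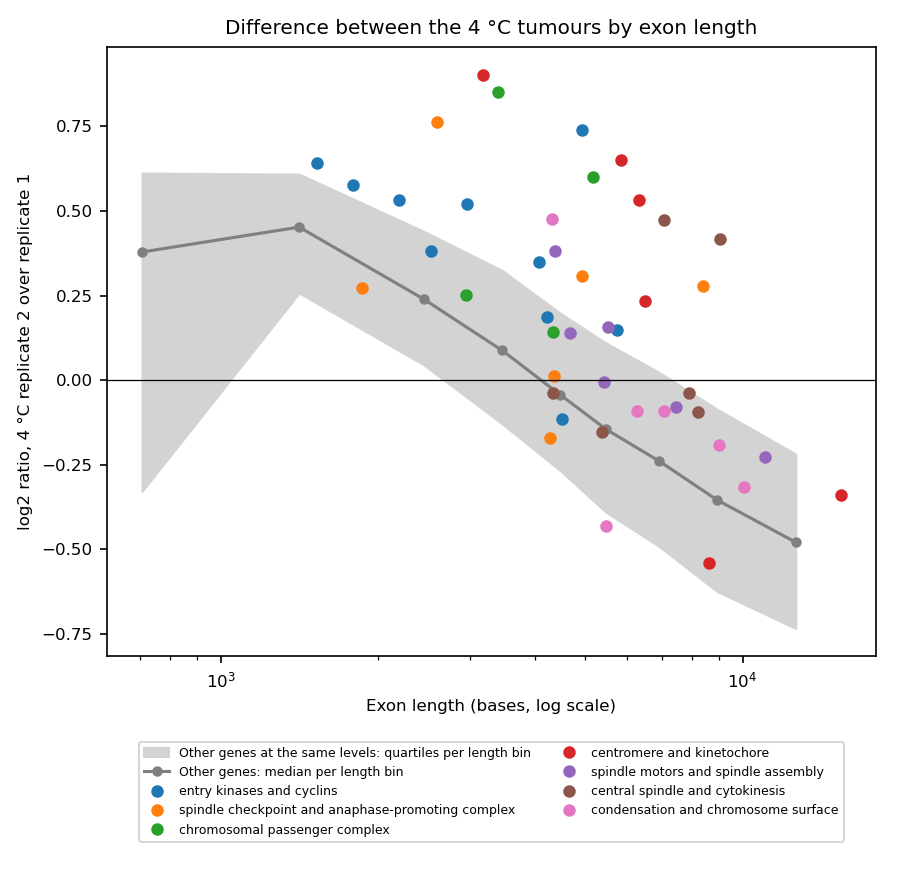
Log2 ratio of the level in 4 °C replicate 2 to that in 4 °C replicate 1 (y axis) against exon length in bases (x axis, log scale) for the 44 genes, coloured by role. Grey points and line are the median per length bin of other tested genes at the levels of the 44, with quartiles as a band; the medians go down with length above 1000 bases, and over the 44 genes rho is −0.56.

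Other genes of mitosis, written down from textbook roles but with earlier results of these data known, were compared in the same fit. Of 85 genes in the table, all tested, 78 were lower at 4 °C and 7 higher, with a median log2 fold change of −0.56. Both tumours at 4 °C were below all 3 at 30 °C for 57 of them and above for 1, Cep55, named after its values were seen. The edgeR test called none of the 85, 38 were lower at an unadjusted p under 0.05, and DESeq2 called 6. Over all genes tested, 11.0% were below without overlap and 4.17% were lower at that p in edgeR. DESeq2 called 0.787% of its genes lower. These shares also stand beside the counts of lower genes in the lists below. No share over all genes is given for genes higher at 4 °C, so counts of higher genes have none to be set beside. The extremes were Cit, the citron kinase of cytokinesis, and Pttg1 (securin), the inhibitor of separase. Cit had 59.1, 67.6 and 53.7 scaled CPM at 30 °C and 31.1 and 23.9 at 4 °C, a log2 fold change of −1.13 ± 0.21 (SE). Pttg1 had 27.0, 36.2 and 23.5 scaled CPM at 30 °C and 26.9 and 39.0 at 4 °C, a log2 fold change of 0.19 ± 0.27 (SE) with overlap.

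Genes of the phase before mitosis, in which DNA is copied, were lower in 41 of 45, with a median of −0.48. Of these genes, 28 were below without overlap (11.0% of all genes). None was called by edgeR, 21 were lower at an unadjusted p under 0.05 and 7 were called by DESeq2. Cdc6, a loader of the replicative helicase, had 93.9, 96.7 and 88.3 scaled CPM at 30 °C and 38.8 and 51.6 at 4 °C, a log2 fold change of −1.04 ± 0.19 (SE). At the other end stood Rfc2, a subunit of the clamp loader, at 0.14 ± 0.16 (SE). Its values of 93.1, 96.0 and 101.1 at 30 °C were below those of 101.4 and 112 at 4 °C. Relative to the replication genes, the summed level of the 44 mitosis genes was 0.977, 1.12 and 0.921 at 30 °C and 0.895 and 0.842 at 4 °C, both below all at 30 °C.

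Regulators of G1 and inhibitors of the cycle were mixed, with 18 of 28 lower and 10 higher and a median of −0.32. Of these, 11 were without overlap below and 4 above. None was called by edgeR, 9 were lower and 1 higher at an unadjusted p under 0.05, and 2 were called by DESeq2. E2f8, an E2F repressor that is itself made in cycling cells, had 108, 110.3 and 83.4 scaled CPM at 30 °C and 41.3 and 49.7 at 4 °C, a log2 fold change of −1.14 ± 0.21 (SE). Cdkn2b, the inhibitor p15 of cyclin D kinases, was scarce, with 1.38, 1.31 and 1.35 scaled CPM at 30 °C and 1.79 and 3.23 at 4 °C, and its log2 fold change was 0.89 ± 0.41 (SE).

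Spleen and bone marrow hold host cells that divide, and their markers are given beside the mitosis genes. The 14 erythroblast markers, which mark dividing red cell precursors, summed to 6332, 7126 and 3698 scaled CPM at 30 °C and to 3637 and 3638 at 4 °C, and 13 of them were lower at 4 °C, 7 without overlap. None was called by edgeR, 7 were lower at an unadjusted p under 0.05 and 3 were called by DESeq2. The 6 markers of neutrophil progenitors all had lower fitted levels, none without overlap, past an unadjusted p of 0.05 or called by either tool, and summed to 1774, 1026 and 264 at 30 °C and 202 and 375 at 4 °C. Markers of germinal centre B cells, which divide in lymphoid follicles, were higher in 8 of 8, with sums of 95.3, 119 and 160 (30 °C) and of 165 and 155 (4 °C), and none of them passed an unadjusted p of 0.05. Markers of B cells and T cells, most of which rest, were higher in 11 of 11 and 9 of 9. Without overlap were 4 of the B cell and 7 of the T cell markers. In edgeR none was called, and 4 and 6 were higher at an unadjusted p under 0.05. DESeq2 called 0 and 4. B cell markers summed to 4180, 5134 and 8578 scaled CPM at 30 °C and 9937 and 11040 at 4 °C, and T cell markers to 287, 335 and 464 at 30 °C and 617 and 642 at 4 °C. Of the 7 genes listed for the spleen 6 were tested and 5 were higher at 4 °C, 4 without overlap and none called. The 7 genes summed to 352, 343 and 383 at 30 °C and to 393 and 512 at 4 °C.

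In 30 °C replicate 3 the erythroblast and neutrophil progenitor sums lay beside those at 4 °C. The erythroblast sum leans on Alas2, the 1 marker of 14 not lower at 4 °C. Alas2 had 496 scaled CPM in 30 °C replicate 3 and 1100 and 954 at 4 °C. For 7 of the 14 markers, 30 °C replicate 3 was above both tumours at 4 °C. In this library the 44 mitosis genes summed to 1.40 times the mean at 4 °C, and 35 of the 44 were above both tumours at 4 °C. Against this library alone the median log2 ratio of the mean at 4 °C was −0.45, with a range from −0.92 to 0.10. The ratio of the mitosis sum to the erythroblast sum, which holds Alas2, was 0.747, 0.815 and 1.15 at 30 °C and 0.788 and 0.884 at 4 °C, with overlap. The ratio to the neutrophil progenitor sum overlapped as well, at 2.67 to 16.1 at 30 °C and 14.2 and 8.56 at 4 °C. The ratio to the germinal centre B cell sum was 49.6, 48.7 and 26.6 at 30 °C and 17.3 and 20.8 at 4 °C, without overlap. The part of the cell makeup in the lower mitosis transcripts was not tested.

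**Figure D5:**
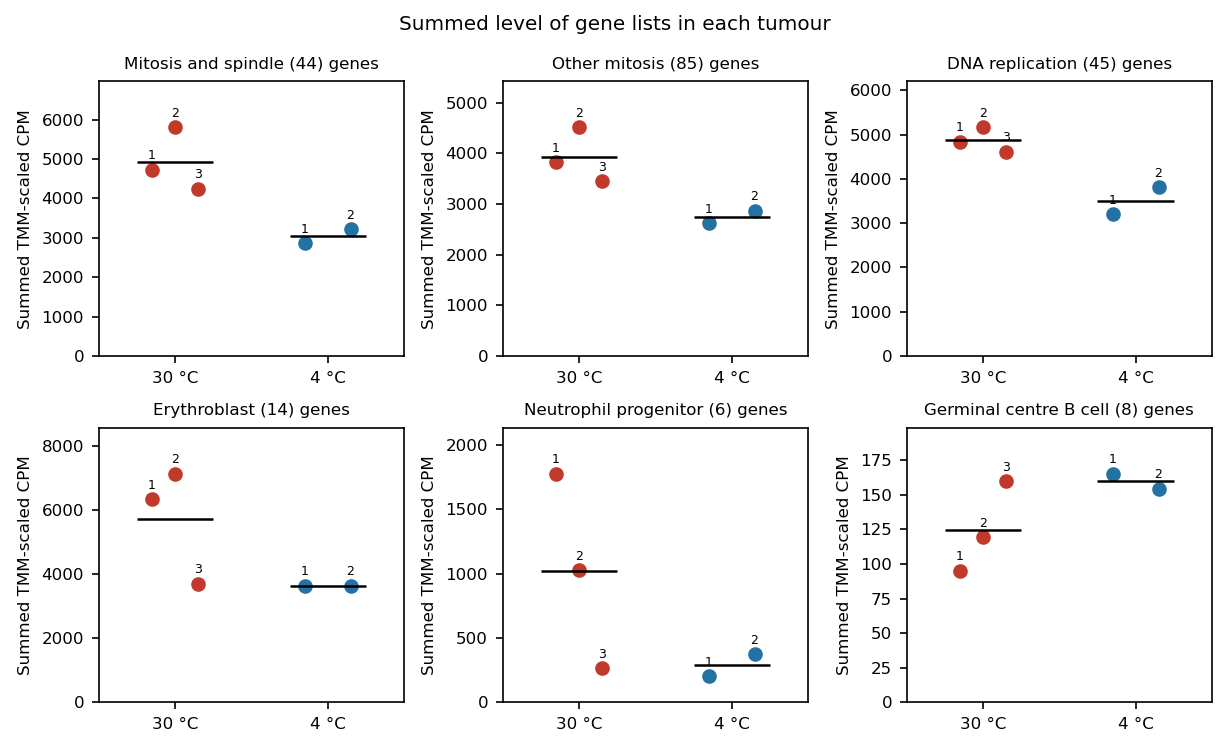
Summed TMM-scaled CPM (y axes, from 0) of 6 gene lists in each tumour, with 30 °C in red and 4 °C in blue, horizontal lines at the group means and small digits giving the replicate. For the 44 mitosis and spindle genes, the other mitosis genes and the replication genes both tumours at 4 °C lie below all 3 at 30 °C. For the erythroblast genes 30 °C replicate 3 (3698) lies beside the tumours at 4 °C (3637 and 3638). This sum includes Alas2, at 496 in 30 °C replicate 3 and 1100 and 954 at 4 °C. For the neutrophil progenitor genes 30 °C replicate 3 lies between the tumours at 4 °C.

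Apart from their role, the 44 genes shared a place among the better covered genes, with 43 in the upper part of the tested genes when ranked by mean level and split at the median. They lay on 17 chromosomes with at most 7 on any of them. Per kilobase of exon, they spanned from 3.40 scaled CPM per kb for Ttk, a checkpoint kinase, to 74.1 for Ccnb2 as the mean of the 5 tumours. Neighbours in this order, such as Cdc20 (63.2 at 30 °C and 49.0 at 4 °C) and Ube2c (67.1 and 52.9), differed by less than their spread over tumours.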

How the data were processed

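The authors sequenced total RNA of 5 tumours (TruSeq RNA libraries, 200 ng RNA for each group) and deposited raw counts per gene, whole numbers. The study's methods name featureCounts on Gencode vM19 for the counting, while the submitters' processing notes name fastp, HISAT, RSEM and GRCm38, so which tool made the counts is unsettled. The strand setting is not given in the sources used here. A table of 54446 entries was used, of which 333 without a name, holding 0.0101% to 0.0170% of counts, were left out. Genes were filtered with filterByExpr and scaled by TMM in edgeR 4.0.16 (R 4.3.3, limma 3.58.1), and 16133 genes were compared by the quasi-likelihood F-test with robust estimation, Benjamini-Hochberg adjustment over all of them and 0.05 as the threshold. The fit was tested on simulated counts. Standard errors (SE) were derived from the test, as the absolute log2 fold change divided by the square root of its F statistic. Scaled CPM are counts per 1000000 after TMM. DESeq2 1.42.0 was an alternative, as it was the authors' own tool, beside other scalings, filters, the replicate number as a block and each tumour left out. Leaving out both libraries with acinar transcripts was added after seeing the data. No label says more than that the tumours are separate samples, so p-values measure the spread between these samples only.

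The 44 genes and all lists were chosen with earlier results of these data known. Named with values in every tumour are, in each of 7 role groups, the gene with the highest mean level, the lowest and the highest log2 fold change, with Mki67, Cdk1, Ccnb1, Plk1, Aurkb, Top2a and Foxm1 added, and the extremes of the other pathway lists. Coordinates and exon lengths (union of exons) come from GENCODE M21 on GRCm38, promoters from RefSeq on GRCm38.p6. Lists of plasma cell, mature neutrophil and megakaryocyte markers gave 5 of 7, 0 of 9 and 0 of 6 genes higher at 4 °C. Figures were drawn with matplotlib 3.10.9. No label says that the same replicate numbers in both groups mark pairs, and the reported fit did not treat them as pairs.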

Additional observations from a re-analysis of the deposited data

How the results depend on the processing

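Over 15 alternatives, all 660 log2 fold changes of the 44 genes stayed below 0, and of the 330 values of the 22 genes named with values in every tumour, 14 moved by more than the spread between tumours. The median log2 fold change lay between −0.78 and −0.54 with each tumour left out in turn. Scaling by library totals alone moved the median of all genes to 0.11, and relative to it the 44 genes stood at −0.63. Over all genes, 8 were called with library totals alone, 44 with the replicate block and 118 by DESeq2, against 0 in the reported edgeR fit. Members of the 44 and other mitosis genes were called only by DESeq2, 4 and 6 of them. With the replicate block the median of the 44 genes was −0.76 and none of them was called. The correlation of deviations from the group means was −0.25 for number 1 and 0.26 for number 2. With 2 tumours at 4 °C, their deviations are equal with opposite sign. The correlations are therefore not independent and cannot show whether equal numbers mark pairs. Both tumours of number 2 also held acinar transcripts (31.0% and 0.301% of counts). Leaving out a tumour at 4 °C leaves 1 in that group, which is then assumed to vary like the others.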
